A study of Mus musculus with 6 samples.

Results

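The 33 genes described here encode the nuclear parts of respiratory complex III, cytochrome c and the mitochondrial ATP synthase. They were chosen by symbol alone, as the rows named Uqc followed by letters or digits, Cyc1, Cycs, Atp5 followed by letters or digits, Atpif1, Atpaf1 and Atpaf2, without pseudogenes. Symbols and not measured values decided which rows were members, although the family was chosen with earlier results of these data known. Of 55413 rows with a unique gene ID 33 were members. Atp5o had another record, listed at 0 in every library, and the record with the higher mean was used. RNA was sequenced from 6 libraries of C2C12, a line of mouse myoblasts that forms myotubes when serum is lowered. All cells were grown in 10% fetal bovine serum, moved to 2% horse serum and collected on day 4 of differentiation, with 3 libraries labelled WT and 3 labelled FHL3-KO, a knockout of the LIM-domain protein FHL3. The labels name no clone and no separate cultures, so genotype cannot be told apart from clone, and a p-value speaks only of the scatter among these 6 libraries, which may be technical.

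Complex III passes electrons from ubiquinol to cytochrome c, a small mobile haem protein of the space between the mitochondrial membranes, and moves protons outward as it does so. ATP synthase lets protons back through a rotating ring of c subunits, which turns a central stalk inside the catalytic F1 head while a peripheral stalk holds the head still. Both complexes are built from many nuclear genes and from a few genes of mitochondrial DNA, and oxidative muscle is rich in both. FHL3 is named in the title of the series with fast glycolytic fibres and the transcription factor YY1, so the comparison asks how these oxidative genes stand in the FHL3-KO-labelled libraries.

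Values are taken as FPKM (fragments per kilobase of gene and per size of the library), a unit meant for comparing levels between genes. The length used for each gene is not given, so comparisons of levels between genes are uncertain. The read depth behind the values is unknown. Each library had between 11798 and 12296 genes above 1 FPKM. Fhl3 itself stood at 27.8, 30.03 and 33.7 FPKM in WT and 57.2, 53.5 and 58.9 FPKM in the FHL3-KO-labelled libraries (log2 change 0.87, SE 0.09, limma adjusted p = 0.000547; exact two-sided permutation p = 0.1, the smallest that 3 against 3 allows). The labels do not say how the gene was disrupted. Its RNA was higher in the FHL3-KO-labelled libraries. Whether the labels of the 2 groups were exchanged was not tested, and an exchange would turn every direction given here. The groups are named by their labels throughout, and every direction below is that of the libraries labelled FHL3-KO against WT. The 10 myotube markers (Myog, Myh3, Ckm and others) were all at 1 FPKM or more in both groups and summed to between 5471 and 6091 FPKM in WT and between 12586 and 13120 FPKM in the FHL3-KO-labelled libraries. The 6 fibroblast markers summed to 435.1 to 497.7 FPKM and to 147.5 to 165.9 FPKM. The 5 markers of cycling myoblasts summed to 105.1 to 131.7 and to 80.9 to 98.3 FPKM, and 5 macrophage markers to 4.69 to 6.64 and to 2.58 to 3.25 FPKM. Most of the macrophage sum was Cd14, at 5.79, 3.9 and 4.48 FPKM in WT and 2.38, 2.07 and 2.24 FPKM in the FHL3-KO-labelled libraries. Cd68 overlapped, and Ptprc, Adgre1 and Csf1r were at most 0.05 FPKM in every library. Single markers differed from these sums. Ccnb1 was at 17.86, 17.89 and 19.86 FPKM in WT and higher, at 29.59, 32.97 and 26.7 FPKM, in the FHL3-KO-labelled libraries. Cdk1 overlapped, while Myf5, Mki67 and Top2a were lower. Col1a1 was higher (4.16, 4.1 and 4.21 against 8.73, 7.5 and 9.78 FPKM), and the other fibroblast markers were lower. Adipocyte markers summed to at most 0.26 FPKM with Adipoq, Plin1 and Lep at 0 in every library, endothelial markers to at most 1.25 FPKM with Emcn at 0, and osteoblast markers to 2.28 to 4.53 FPKM with Ibsp at 0. Hepatocyte markers summed to 96.8 FPKM in WT replicate 1, Alb alone giving 56.0 FPKM, and to at most 0.02 FPKM elsewhere, with Fabp1 at 0 in every library. In bulk RNA fewer cells of a type and less RNA per cell cannot be told apart, and the part of these shifts in the results below was not tested.

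Nuclear genes of both complexes leaned upward. Of the 33 members, all of which passed the filter of 1 FPKM in at least 1 group, 13 rose (39.4%, limma on log2(FPKM + 1), adjusted p under 0.05 over all genes), against 19.7% of the 12528 genes tested, of which 40.8% were called in either direction. None fell, against 21.2% of all tested genes, and at an unadjusted p under 0.05 the count of falls was also 0. The groups were apart with the libraries labelled FHL3-KO higher for 15 members (45.5%), against 26.9% of all tested genes, and apart the other way for 0 members (53.8% of all tested genes were apart in either direction). The median log2 change was 0.17 over the members and -0.005 over all tested genes. Without WT replicate 1, the library with hepatocyte RNA, 10 members rose and the median was 0.11, and without the FHL3-KO replicate 3 the counts were 9 and 0, with a median of -0.02. Leaving out the FHL3-KO replicate 1 gave 8 rises, and quantile normalization of the libraries gave 7. After quantile normalization 4964 of 12528 tested genes were called, 51.8% of them rises. The share of members that rose was then close to that of all tested genes. Without the FHL3-KO replicate 1, 3574 of 12534 genes were called (51.1% of them rises). The figures were 3984 of 12487 without WT replicate 1 (50.9%) and 4083 of 12567 without the FHL3-KO replicate 3 (49.8%). After scaling each library to the same FPKM sum, all tested genes had a median of -0.10, 36.3% of calls were rises in place of 48.2%, and 10 members rose with a median of 0.07. Scaled to the same sum without mitochondrial transcripts, all genes had a median of -0.15, 29.4% of calls were rises, and 9 members rose with a median of 0.007. With a filter at 5 FPKM, 3937 of 9026 genes were called, 54.2% of them rises, and all tested genes had a median of 0.05. In that setting 13 members rose with a median of 0.19. Members had a median level of 136 FPKM, and they were not compared with genes of matched level. In each of these settings no member fell.

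**Figure D1:**
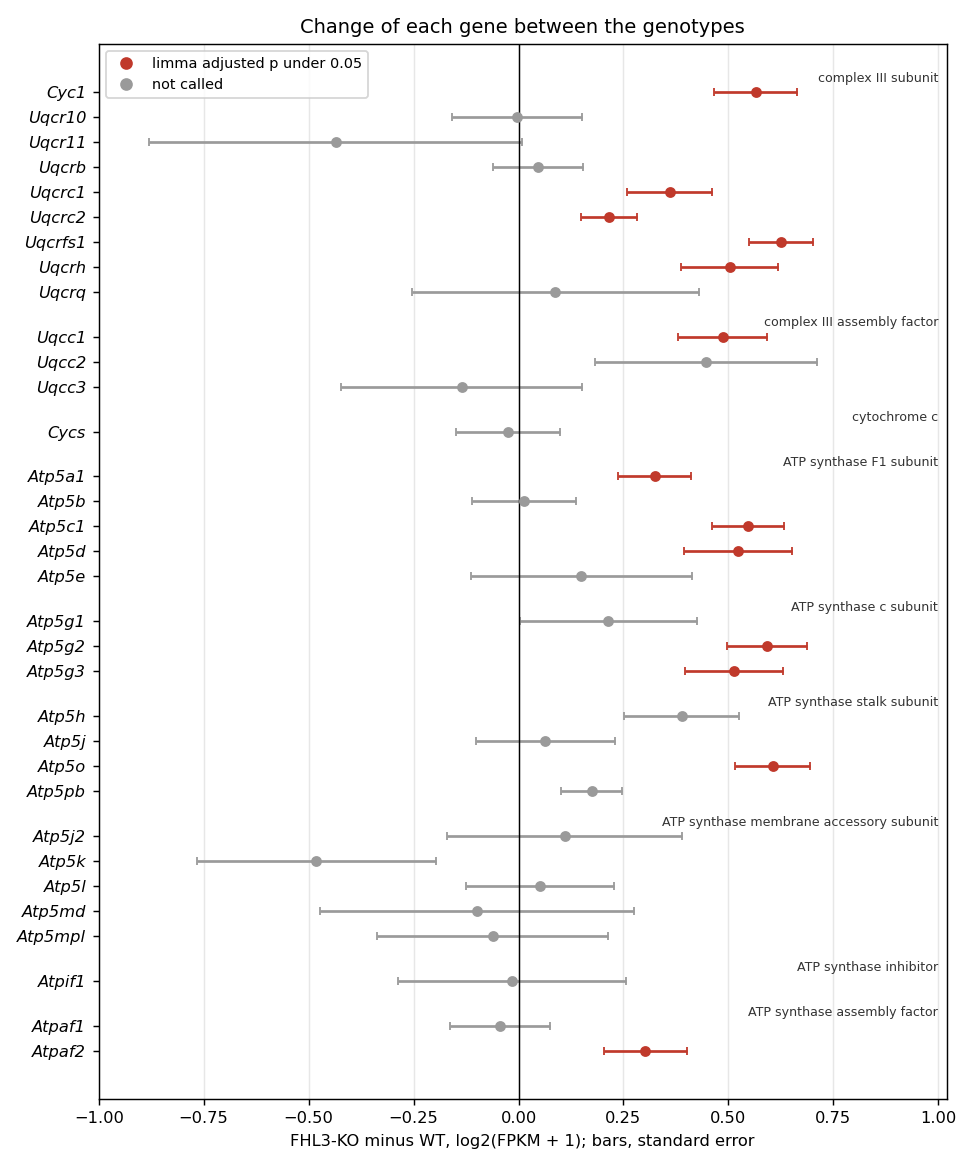
Change of each of the 33 genes between the genotypes, as the difference of mean log2(FPKM + 1), libraries labelled FHL3-KO minus WT, with standard errors from limma (n = 3 libraries per group). Genes are ordered by role, and the 13 in red passed an adjusted p of 0.05; all 13 lie to the right of 0, while the accessory subunits of the ATP synthase membrane part and cytochrome c lie around or left of it.

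Of the 9 nuclear subunits of complex III 5 rose and 0 fell. The electron carriers and core proteins among them rose, as did the hinge protein. The other 4 small subunits did not pass the test. Cytochrome b, which is encoded in mitochondrial DNA, fell and is given further below. Uqcrfs1 (ENSMUSG00000038462, chr13:30540308-30545362, GRCm38), the Rieske iron-sulfur protein that takes electrons from ubiquinol, stood at 84.3, 82.2 and 85.7 FPKM in WT replicates 1 to 3 and 132.5, 121.8 and 136.8 FPKM in the corresponding replicates labelled FHL3-KO. Every library labelled FHL3-KO lay above every WT library, and the WT libraries differed by less than 4 FPKM. The change was the largest of the members (log2 change 0.63, SE 0.08, limma adjusted p = 0.000985). Cyc1 (ENSMUSG00000022551, chr15:76343523-76346260), the cytochrome c1 haem subunit that hands electrons to cytochrome c, stood at 99.97, 122.2 and 123.9 FPKM in WT and 167.1, 170.6 and 173.5 FPKM in the FHL3-KO-labelled libraries (log2 change 0.56, SE 0.10, limma adjusted p = 0.00417). WT replicate 1 was the lowest library, and the groups did not overlap. Uqcrh, the acidic hinge protein beside cytochrome c1, stood at 176.6, 203.4 and 219.5 FPKM in WT and 278.4, 257.3 and 314.4 FPKM in the FHL3-KO-labelled libraries (log2 change 0.50, SE 0.12, limma adjusted p = 0.0118), again with the groups apart. Removal of the trend with length and GC content lowered the log2 change of Cyc1 to 0.31, and quantile normalization that of Uqcrh to 0.30, and both were still called.

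The log2 changes of both large core proteins were smaller. Uqcrc1 stood at 86.4, 105.7 and 106.3 FPKM in WT and 127.7, 121.6 and 133.2 FPKM in the FHL3-KO-labelled libraries (log2 change 0.36, SE 0.10, limma adjusted p = 0.0251). Uqcrc2 stood at 68.03, 71.03 and 69.8 FPKM in WT and 81.7, 79.6 and 81.6 FPKM in the FHL3-KO-labelled libraries (log2 change 0.21, SE 0.07, limma adjusted p = 0.0363), a ratio of means of 1.16. The groups were apart for both genes. The Uqcrc1 call ended without the FHL3-KO replicate 1 (0.0754), without the FHL3-KO replicate 3 (0.0722) and without WT replicate 2 (0.0508) (limma adjusted p in brackets, 0.022 to 0.0964 over all 18 alternatives). The Uqcrc2 call ended when any 1 of the 6 libraries was left out, without the FHL3-KO replicate 1 (0.11), without the FHL3-KO replicate 2 (0.0513), without the FHL3-KO replicate 3 (0.0865), without WT replicate 1 (0.076), without WT replicate 2 (0.104) and without WT replicate 3 (0.0812). Over the alternatives the adjusted p of Uqcrc2 ran from 0.00656 to 0.632. The Uqcrc1 call also ended with the length and GC trend removed (log2 change 0.24), after quantile normalization (0.20), after scaling without mitochondrial transcripts (0.19) and with no filter (adjusted p = 0.0645). The log2 change of Uqcrc2 was 0.34 with the length and GC trend removed, where it was called. It was 0.07 after quantile normalization, 0.11 scaled to the same sum, 0.05 scaled without mitochondrial transcripts and 0.12 with the exon length trend removed, and it was called in none of these.

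The other 4 subunits are small proteins on the membrane face of the complex. Uqcrb, which lies near a ubiquinone site, was at 67.4 ± 7.27 and 69.5 ± 6.35 FPKM (SD, n = 3 each; log2 change 0.05, limma adjusted p = 0.75). Uqcr10 was at 147.5 ± 30.9 and 145.3 ± 13.8 FPKM (log2 change -0.004, limma adjusted p = 0.985). Uqcrb was called higher with the length and GC trend removed (log2 change 0.38, adjusted p = 0.0383), with an adjusted p of 0.0383 to 0.955 over the alternatives. Uqcr11 stood at 111.8, 206.6 and 269 FPKM in WT and 151.8, 72.9 and 224.8 FPKM in the FHL3-KO-labelled libraries (log2 change -0.44, limma adjusted p = 0.458). Uqcrq stood at 67.1, 102.2 and 122.2 FPKM in WT and 103.3, 61.99 and 157.2 FPKM in the FHL3-KO-labelled libraries (log2 change 0.09, limma adjusted p = 0.855). In each of these 2 genes WT replicate 1 and the FHL3-KO replicate 2 were the lowest libraries of their groups and the groups overlapped, with standard errors of 0.44 and 0.34 on the log2 scale against 0.08 for Uqcrfs1. Summed over the 9 nuclear subunits, complex III RNA was at 871.6, 1108 and 1249 FPKM in WT, and 1247, 1088 and 1460 FPKM in the FHL3-KO-labelled libraries. The sums overlapped.

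Of the 3 assembly factors of complex III 1 rose, and cytochrome c itself did not pass the test. Uqcc1, which binds newly made cytochrome b, stood at 16.8, 17.3 and 18.3 FPKM in WT and 25.8, 21.5 and 27.5 FPKM in the FHL3-KO-labelled libraries (log2 change 0.49, SE 0.10, limma adjusted p = 0.00935), with the groups apart (log2 change 0.74 with the length and GC trend removed). Its partner Uqcc2 stood at 77.7, 131 and 152.2 FPKM in WT and 168.5, 121.8 and 192.3 FPKM in the FHL3-KO-labelled libraries, with WT replicate 1 lowest (log2 change 0.45, limma adjusted p = 0.212). Uqcc3, a later factor of cytochrome b assembly, stood at 4.91, 6.77 and 7.21 FPKM in WT and 8.04, 3.12 and 6.65 FPKM in the FHL3-KO-labelled libraries (log2 change -0.14, limma adjusted p = 0.729), the FHL3-KO replicate 2 being lowest. Cycs, the somatic cytochrome c, stood at 33.5, 38.8 and 44.9 FPKM in WT and 38.9, 34.1 and 41.6 FPKM in the FHL3-KO-labelled libraries (log2 change -0.03, SE 0.12, limma adjusted p = 0.882). The groups overlapped, so the electron carrier and its donor Cyc1 differed in call, a difference that was not itself tested. In WT, Cycs was at 39.1 ± 5.7 FPKM and Cyc1 at 115.4 ± 13.4 FPKM. The distance between these levels depends on the gene lengths used, which are not given.

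**Figure D2:**
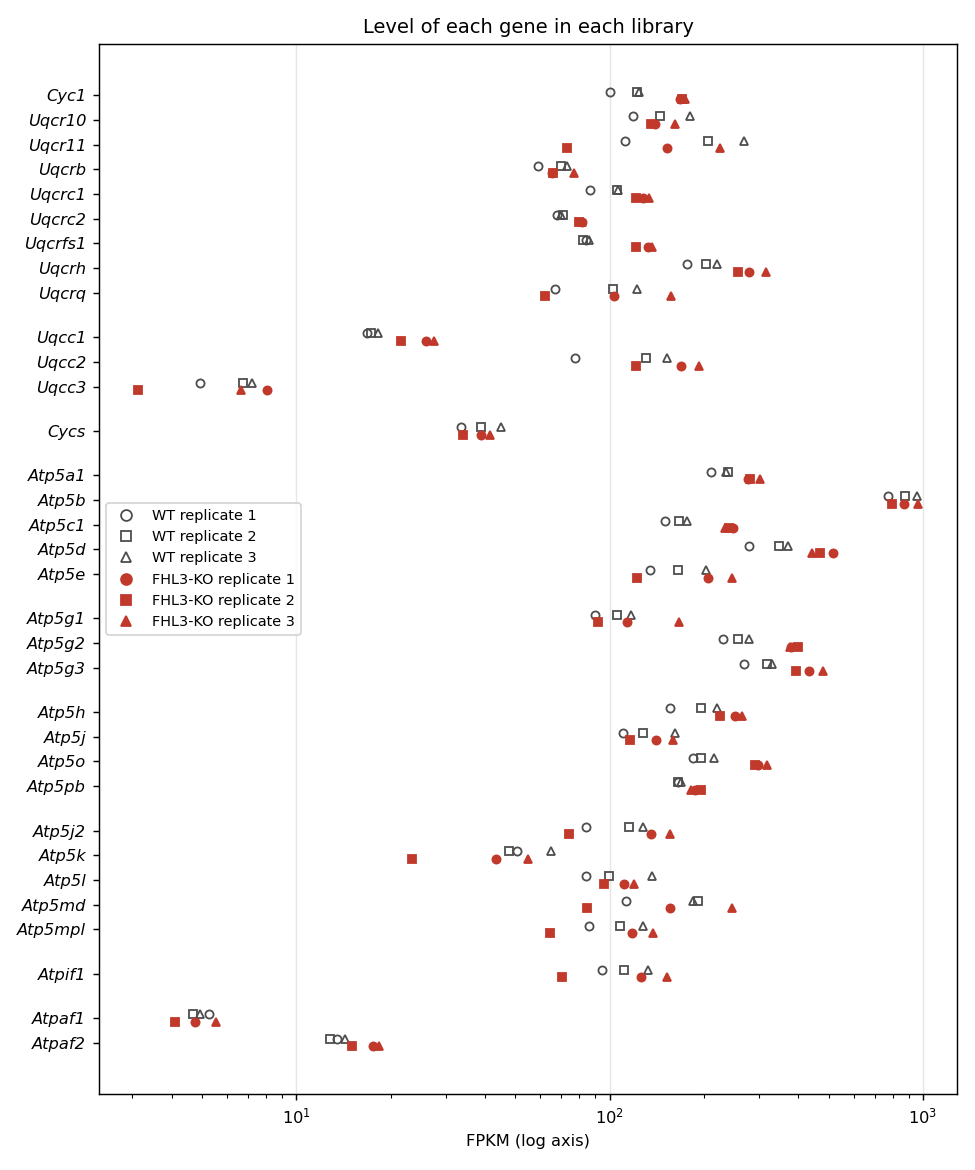
FPKM of each of the 33 genes in each library on a log axis, WT in open grey and libraries labelled FHL3-KO in filled red, with 1 symbol per replicate number. Uqcrfs1, Cyc1, Atp5c1, Atp5o and Atp5g2 show red points apart from grey ones. For Uqcr11, Uqcrq, Atp5k and Atp5mpl the red square of the FHL3-KO replicate 2 lies furthest to the left. In Uqcrq that square is close to WT replicate 1.

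Within the F1 head of ATP synthase the gamma, delta and alpha subunits rose, while the catalytic beta subunit and the epsilon subunit did not pass the test. Of 5 F1 subunits 3 rose and 0 fell. Atp5c1 (ENSMUSG00000025781, chr2:10056016-10080510), the gamma subunit that forms the rotating shaft, stood at 150.4, 166.8 and 176.2 FPKM in WT and 247.8, 239.6 and 234 FPKM in the FHL3-KO-labelled libraries (log2 change 0.55, SE 0.09, limma adjusted p = 0.0028). Atp5d, the delta subunit at the foot of the shaft, stood at 277.5, 348.1 and 371.3 FPKM in WT and 515.4, 468.2 and 442.3 FPKM in the FHL3-KO-labelled libraries (log2 change 0.52, SE 0.13, limma adjusted p = 0.0155). The Atp5d call ended without the FHL3-KO replicate 1 (0.0628). Its call also ended after quantile normalization (log2 change 0.25, adjusted p = 0.124), with the length and GC trend removed (0.29, adjusted p = 0.061) and with no filter (adjusted p = 0.0588). The range for Atp5d over the alternatives was 0.0152 to 0.124. The groups were apart for both genes. Atp5a1, the alpha subunit, stood at 210.4, 238.9 and 235.3 FPKM in WT and 276.9, 279.4 and 300.6 FPKM in the FHL3-KO-labelled libraries (log2 change 0.32, SE 0.09, limma adjusted p = 0.0216). Its groups were apart as well, but the call ended without the FHL3-KO replicate 1 (0.0575), without the FHL3-KO replicate 3 (0.0638), without WT replicate 1 (0.0504) and without WT replicate 2 (0.0574), and the adjusted p ran from 0.0143 to 0.399 over the alternatives. The log2 change of Atp5a1 was 0.09 after quantile normalization, 0.15 with the length and GC trend removed, 0.21 scaled to the same sum and 0.16 scaled without mitochondrial transcripts, and it was called in none of these. Atp5b, the beta subunit that makes ATP, had the highest level of all members, 773.4, 873.8 and 956.9 FPKM in WT and 866.8, 793.3 and 966.4 FPKM in the FHL3-KO-labelled libraries, and the groups overlapped (log2 change 0.013, SE 0.12, limma adjusted p = 0.942). Atp5e, the small epsilon subunit, stood at 134.6, 165.6 and 203.4 FPKM in WT and 205.9, 121.9 and 246.2 FPKM in the FHL3-KO-labelled libraries (log2 change 0.15, limma adjusted p = 0.673), with the FHL3-KO replicate 2 lowest. The difference between the alpha and beta subunits was not itself tested.

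The c subunits, which line the proton path, are made by 3 genes, Atp5g1, Atp5g2 and Atp5g3, whose proteins differ in the import signal that is cut off and share the mature subunit. Atp5g1 (ENSMUSG00000006057, chr11:96068852-96075670) stood at 89.5, 105.8 and 117.1 FPKM in WT and 113.7, 91.7 and 166.5 FPKM in the FHL3-KO-labelled libraries (log2 change 0.21, SE 0.21, limma adjusted p = 0.442), with overlapping groups. Atp5g2 (ENSMUSG00000062683, chr15:102662864-102672352) stood at 229.9, 257.4 and 277.8 FPKM in WT and 378.1, 397.8 and 375.3 FPKM in the FHL3-KO-labelled libraries (log2 change 0.59, SE 0.10, limma adjusted p = 0.00303). Atp5g3 (ENSMUSG00000018770, chr2:73908447-73911326) stood at 268.4, 318 and 329.1 FPKM in WT and 433.9, 393.8 and 479.4 FPKM in the FHL3-KO-labelled libraries (log2 change 0.51, SE 0.12, limma adjusted p = 0.0114). Both rose with the groups apart, although after quantile normalization Atp5g3 was no longer called (log2 change 0.22, adjusted p = 0.0788, the highest over the alternatives, whose lowest was 0.00268). The log2 change of Atp5g2 was 0.34 in that setting and 0.33 with the length and GC trend removed, and it was called in both. The summed RNA of the 3 genes was at 587.8, 681.2 and 724 FPKM in WT, and 925.7, 883.3 and 1021 FPKM in the FHL3-KO-labelled libraries, with no overlap. Each gene's share of that sum overlapped between the groups. Atp5g3 took 45.9% ± 0.66 of the sum in WT and 46.1% ± 1.3 in the FHL3-KO-labelled libraries, Atp5g2 38.4% ± 0.66 and 40.9% ± 4.1, and Atp5g1 15.6% ± 0.48 and 12.99% ± 3.02 (SD, n = 3 each). These sums and shares depend on the length used for each gene, which is not given. By GENCODE M21, exon length and principal transcript length were 4912 and 596 bases for Atp5g1. They were 1675 and 441 bases for Atp5g2, and 2181 and 714 bases for Atp5g3. Which of the 3 genes gives the most RNA molecules therefore cannot be told from the shares.

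The starts of these 3 genes are shown to let the copies be compared, since their RNA differed in call. Each line gives 100 bases before and 30 after the RefSeq start (build GRCm38.p6, all on the minus strand, 5′ to 3′ along the gene), with matches to the motifs named further below in capitals. The windows are chr11:96075602-96075731, chr15:102671018-102671147 and chr2:73911297-73911426.
Atp5g1: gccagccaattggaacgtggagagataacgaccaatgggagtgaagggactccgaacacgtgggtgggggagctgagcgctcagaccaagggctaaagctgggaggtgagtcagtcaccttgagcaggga
Atp5g2: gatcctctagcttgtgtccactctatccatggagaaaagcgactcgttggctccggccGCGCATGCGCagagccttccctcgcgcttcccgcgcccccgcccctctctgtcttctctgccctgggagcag
Atp5g3: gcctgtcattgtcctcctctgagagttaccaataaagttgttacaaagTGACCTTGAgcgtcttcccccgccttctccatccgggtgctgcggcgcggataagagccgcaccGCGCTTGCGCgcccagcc
Atp5g1 held no match, Atp5g2 held 1 match to the motif of NRF-1, a regulator of respiratory genes, and Atp5g3 held 1 to that of NRF-1 and 1, in front of the start, to that of the ERR receptors. A match is a stretch of letters and not evidence of binding.

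Peripheral stalk subunits were higher in mean with 1 call among 4. Atp5o (ENSMUSG00000022956, chr16:91925214-91931687), the subunit that ties the stalk to the top of the F1 head, stood at 184.7, 195.6 and 215.9 FPKM in WT and 297.6, 291.4 and 318.4 FPKM in the FHL3-KO-labelled libraries (log2 change 0.60, SE 0.09, limma adjusted p = 0.00221), with the groups apart. Atp5h, the d subunit, stood at 155.5, 195.7 and 219.5 FPKM in WT and 251.7, 225.4 and 265.2 FPKM in the FHL3-KO-labelled libraries (log2 change 0.39, limma adjusted p = 0.0548). It missed the threshold narrowly, and it passed without WT replicate 3 (adjusted p = 0.0276), without the FHL3-KO replicate 2 (0.0462) and after the trend with exon length was removed (0.0473), with a range of 0.0179 to 0.15 over the alternatives. Atp5pb, the b subunit, stood at 165.8, 165.3 and 169 FPKM in WT and 187.4, 195.7 and 181.9 FPKM in the FHL3-KO-labelled libraries, with the groups apart (log2 change 0.17, limma adjusted p = 0.0906). It was called higher with the length and GC trend removed (log2 change 0.54, adjusted p = 0.00256) and stood at -0.006 after quantile normalization (0.963), the highest adjusted p over the alternatives. Atp5j, the coupling factor F6, was at 133.3 ± 26.4 and 138.8 ± 21.7 FPKM (log2 change 0.06, limma adjusted p = 0.778). Summed over the 4 genes, the levels were 615.9, 684.7 and 766.3 FPKM in WT and 877.6, 828.6 and 924.8 FPKM in the FHL3-KO-labelled libraries.

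No accessory subunit of the membrane part passed the test in either direction, and 0 had an unadjusted limma p under 0.05. These 5 small proteins help ATP synthase pair into dimers that shape the inner membrane. Atp5k, the e subunit, stood at 50.6, 47.7 and 64.9 FPKM in WT and 43.5, 23.4 and 54.97 FPKM in the FHL3-KO-labelled libraries (log2 change -0.48, SE 0.28, limma adjusted p = 0.212), the lowest log2 change of the members. It was called lower after the trend with exon length and GC content was removed (-0.61, adjusted p = 0.0416) or that with principal transcript length (-0.43, 0.0488), with adjusted p from 0.0416 to 0.506 over the alternatives. Without the FHL3-KO replicate 2 the log2 change of Atp5k was -0.14, adjusted p = 0.506. Atp5l, the g subunit, was at 106.7 ± 27.02 and 108.9 ± 11.7 FPKM, Atp5j2, the f subunit, at 109.1 ± 22.5 and 121.7 ± 42.5 FPKM, Atp5md at 163 ± 43.5 and 161.9 ± 80.5 FPKM and Atp5mpl at 107.4 ± 21.1 and 106.5 ± 37.6 FPKM (limma adjusted p of 0.831, 0.776, 0.85 and 0.875). Their sum, 417.4, 562.5 and 641.8 FPKM in WT and 562.8, 343.1 and 713 FPKM in the FHL3-KO-labelled libraries, spread more within a group than between them.

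The inhibitor and the assembly factors showed 1 rise. Atpif1, the protein that blocks ATP synthase from running backwards, stood at 94.7, 111.1 and 132.8 FPKM in WT and 125.7, 70.5 and 152.8 FPKM in the FHL3-KO-labelled libraries (log2 change -0.015, SE 0.27, limma adjusted p = 0.97), with the highest and the lowest value both among the libraries labelled FHL3-KO. Atpaf2, a chaperone of the alpha subunit, stood at 13.4, 12.8 and 14.3 FPKM in WT and 17.5, 15.02 and 18.4 FPKM in the FHL3-KO-labelled libraries (log2 change 0.30, SE 0.10, limma adjusted p = 0.0442). Its groups were apart, but the call ended without the FHL3-KO replicate 1 (0.13), without the FHL3-KO replicate 3 (0.129), without WT replicate 1 (0.0952), without WT replicate 2 (0.151) and without WT replicate 3 (0.0586), and the adjusted p ran from 0.0166 to 0.287 over the alternatives. Its log2 change was 0.14 with the length and GC trend removed, 0.20 scaled to the same sum and 0.14 scaled without mitochondrial transcripts, and it was called in none of these. Atpaf1, the chaperone of the beta subunit, stood at 5.26, 4.67 and 4.92 FPKM in WT and 4.75, 4.11 and 5.53 FPKM in the FHL3-KO-labelled libraries (log2 change -0.04, limma adjusted p = 0.789) and overlapped. Thus alpha and its chaperone passed the test and beta and its chaperone did not, a pairing noticed after the values were seen and not tested as a difference.

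Members with short transcripts spread more between replicates than members with long ones. By GENCODE M21 the principal transcripts of the members ran from 362 to 3123 bases with a median of 809, against a median of 2815 over tested genes. A limit of 600 bases, set after the values were seen, parted 14 members with short transcripts from 19 with longer ones. Of the short ones 2 rose (Uqcrh and Atp5g2), 14.3% against 15.0% of the tested genes under that limit, and of the longer ones 11 rose, 57.9% against 20.6%. The difference between the short and the long members was not tested. The coefficient of variation had a median of 20.1% in WT and 32.1% in the FHL3-KO-labelled libraries among the short members, and of 10.6% and 8.2% among the longer ones. WT replicate 1 was the lowest WT library in 13 of the 14 short members, and the FHL3-KO replicate 2 was the lowest of its group in 12 of 14. Replicate 3 was the highest of its group in 13 of 14 in WT and likewise in 13 of 14 among the libraries labelled FHL3-KO. Among the 19 longer members WT replicate 1 was lowest in 15, the FHL3-KO replicate 2 was lowest in 14, and replicate 3 was highest in 16 in WT and in 14 among the libraries labelled FHL3-KO, so the order of the libraries was much the same in long and short members. Of 180 tested genes under that limit, WT replicate 1 was lowest in 132 and the FHL3-KO replicate 2 in 119, while of 10904 longer tested genes they were lowest in 3530 and 3001.

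Across the 33 members, the deviation of a library from its group mean and the log2 length of the transcript correlated at r = 0.61 in WT replicate 1, 0.55 in the FHL3-KO replicate 2, -0.68 in WT replicate 3 and -0.58 in the FHL3-KO replicate 3. Over 11084 tested genes the values were 0.40, 0.43, -0.45 and -0.30. These are descriptions across genes, which share the libraries and are not independent replicates. With WT replicate 1 and the FHL3-KO replicate 2 both left out, a setting chosen after seeing the data, 14 members rose and 0 fell, Uqcc2 (adjusted p = 0.0423) and Atp5h joining and Uqcrc2 leaving, with a median of 0.26. After each library's trend with principal transcript length was removed, 12 rose, of which 11 were among the 13, and Atp5k alone fell. What made the libraries differ by transcript length was not tested.

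**Figure D3:**
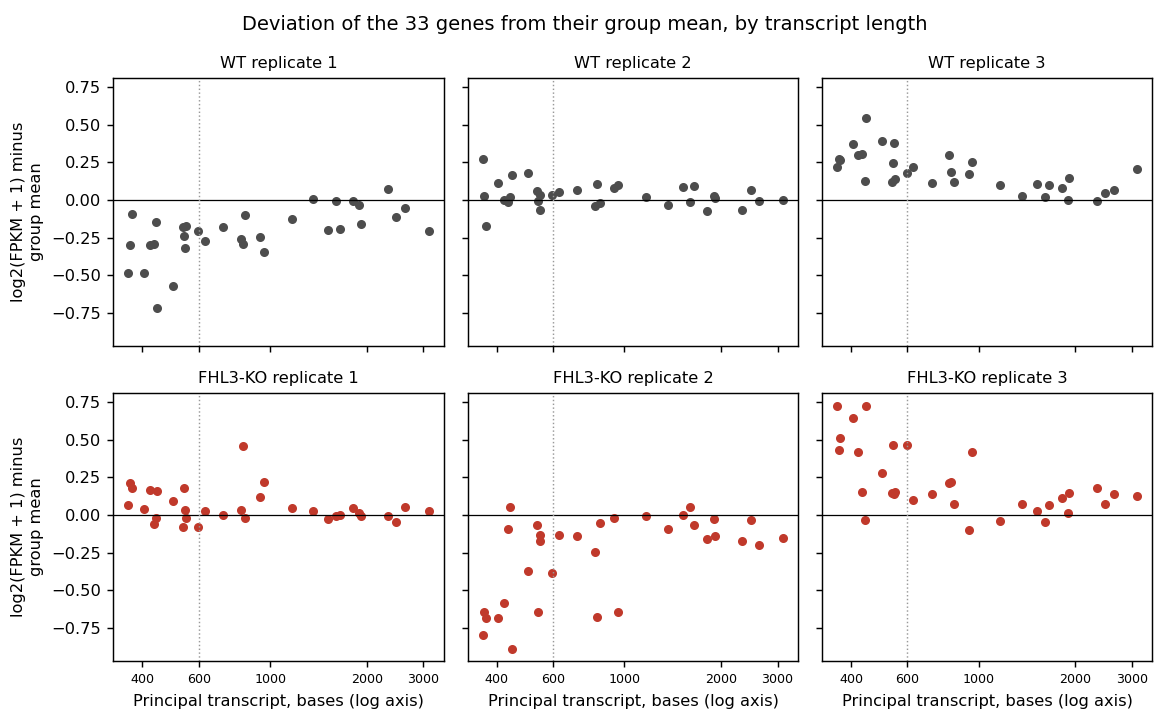
Difference of each of the 33 genes from its group mean, in log2(FPKM + 1), against the length of its principal transcript in bases on a log axis, with 1 panel per library and a dotted line at 600 bases. In WT replicate 1 and the FHL3-KO replicate 2 most transcripts under the line lie below 0, and in both replicates 3 most lie above 0.

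The subunits encoded in mitochondrial DNA moved the opposite way to the nuclear subunits that rose. mt-Cytb, the cytochrome b core of complex III, stood at 4121.9, 4505.1 and 4480.3 FPKM in WT and 1973.1, 2590.6 and 1588.5 FPKM in the FHL3-KO-labelled libraries (log2 change -1.12, SE 0.19, limma adjusted p = 0.00375). mt-Atp6, the a subunit beside the c ring, stood at 3382.3, 3914.3 and 3709 FPKM in WT and 1689, 2340.1 and 1308.9 FPKM in the FHL3-KO-labelled libraries (log2 change -1.08, SE 0.21, limma adjusted p = 0.00663). mt-Atp8 stood at 1960.6, 2194.3 and 2115.4 FPKM in WT and 554.6, 949.9 and 578 FPKM in the FHL3-KO-labelled libraries (log2 change -1.63, SE 0.21, limma adjusted p = 0.00117). All 3 fell with the groups apart, and the FHL3-KO replicate 2 was the highest of its group in each. The mt-Atp6 call ended without the filter on low values (adjusted p = 0.0582, the highest over all alternative settings, whose lowest was 0.00148), and after removal of the trend with length and GC content the changes were -0.78, -0.70 and -1.23 for mt-Cytb, mt-Atp6 and mt-Atp8. The genes mt-Atp8 and mt-Atp6 overlap on their chromosome (chrM:7766-7969 and chrM:7927-8607), so how their reads were divided is uncertain. Of the 13 protein genes of mitochondrial DNA 11 fell and 0 rose, against 21.2% and 19.7% of all tested genes, with a median log2 change of -0.82. Not all of these falls held alike. mt-Co1 (limma adjusted p = 0.0492) was called in 8 of 18 alternatives, mt-Nd5 in 11, and mt-Nd1, mt-Nd6 and mt-Co2 in 14 each. mt-Atp6 was called in 17, and mt-Atp8, mt-Cytb, mt-Nd2, mt-Nd4 and mt-Nd4l in all 18. Of each library's FPKM sum, mitochondrial transcripts took 8.56% to 8.82% in WT and 4.62%, 6.18% and 3.98% in the FHL3-KO replicates 1 to 3.

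**Figure D4:**
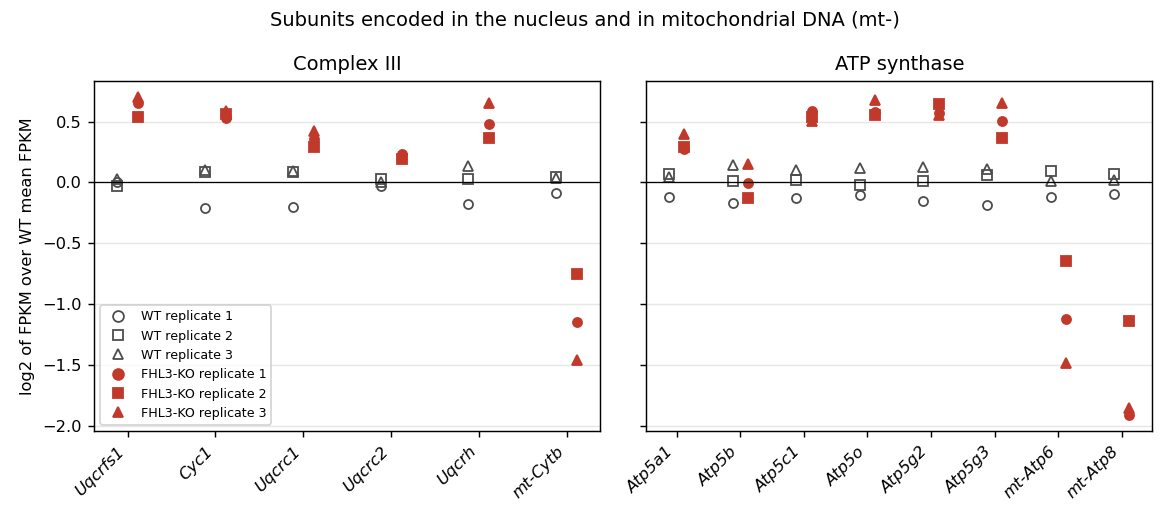
Level of selected subunits in each library relative to the mean of WT, as log2 of the FPKM ratio, with WT in open grey and libraries labelled FHL3-KO in filled red. Of the 11 nuclear subunits drawn, all but Atp5b were called higher with the groups apart. That they lie above 0 in every library labelled FHL3-KO therefore follows from the choice. Other nuclear subunits whose groups overlapped are not drawn. The mitochondrial mt-Cytb, mt-Atp6 and mt-Atp8 lie below 0 in all 3 libraries labelled FHL3-KO.

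Other nuclear genes of the pathway also leaned upward. Complex I feeds electrons to ubiquinone, and of 38 nuclear genes with its subunit symbols (Nduf) 18 rose and 0 fell (median log2 change 0.38). Those with the smallest p were Ndufab1, which rose from 25.6 ± 2.24 to 41.1 ± 4.03 FPKM, and Ndufs3, from 60.7 ± 6.34 to 93.7 ± 5.86 FPKM. Of 4 subunits of complex II 2 rose and 0 fell (median 0.26), Sdhc from 36.3 ± 2.54 to 53.7 ± 1.57 FPKM and Sdhd from 85.6 ± 7.93 to 109.6 ± 5.83 FPKM. The Sdhd call ended without the FHL3-KO replicate 1 (0.0712), without the FHL3-KO replicate 3 (0.0565) and without WT replicate 2 (0.0608) (limma adjusted p in brackets). It also ended after quantile normalization (0.0677) and after scaling without mitochondrial transcripts (0.0837). The range of the limma adjusted p of Sdhd was 0.0137 to 0.0837 over the alternatives. Complex IV takes electrons from cytochrome c, and of 15 tested nuclear genes with its symbols (Cox) 5 rose and 0 fell (median 0.31). Among them were Cox5a, from 124.2 ± 12.3 to 199.2 ± 17.2 FPKM, and Cox7a2l, from 105.2 ± 8.80 to 150.4 ± 6.30 FPKM. The lists of complexes I and IV were set by symbol, so a gene in them need not be a subunit of that complex. These counts stand against 19.7% rising and 21.2% falling over all tested genes, and at an unadjusted limma p under 0.05 the falls in these 3 lists were also 0. Whether the members differ from them was not tested. Counts of these 3 lists in the alternative settings are not given here, and not every call held. Ndufb10 and Ndufs4 were called in 6 of 18 alternatives each, and Ndufa7, whose groups overlapped, in 8. Ndufab1, Ndufs3, Sdhc, Cox5a and Cox7a2l were called in all 18.

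Counts in the partner and regulator lists are small, and 19.7% of all tested genes rose and 21.2% fell. Of 5 tested partners of complex III and cytochrome c, 2 rose and 1 fell (40.0% and 20.0%). Ttc19, which clears fragments of the Rieske protein from complex III, fell from 12.8 ± 1.3 to 9.20 ± 0.90 FPKM (log2 change -0.43, limma adjusted p = 0.0175), opposite to Uqcrfs1. Pmpca, a subunit of the peptidase that cuts import signals, rose from 42.1 ± 0.74 to 51.3 ± 2.52 FPKM (log2 change 0.28, limma adjusted p = 0.0189). Bcs1l, which inserts the Rieske protein, rose from 7.19 ± 1.12 to 9.65 ± 0.47 FPKM (log2 change 0.39, limma adjusted p = 0.0349; named after its values were seen). The Ttc19 call ended without the FHL3-KO replicate 3 (0.0528) and without WT replicate 2 (0.078). That of Pmpca ended without the FHL3-KO replicate 3 (0.0578), without WT replicate 2 (0.0704) and without WT replicate 3 (0.0555). That of Bcs1l ended without the FHL3-KO replicate 1 (0.0867), without the FHL3-KO replicate 3 (0.0982), without WT replicate 1 (0.0859) and without WT replicate 2 (0.0964). Over the alternatives the adjusted p ran from 0.012 to 0.078 for Ttc19, from 0.00438 to 0.341 for Pmpca and from 0.0211 to 0.124 for Bcs1l. Of 13 tested partners of ATP synthase 5 rose (38.5%) and 0 fell (median 0.25). Those with the smallest p were the outer membrane channels Vdac3, from 76.1 ± 4.65 to 124.4 ± 12.4 FPKM (log2 change 0.70, limma adjusted p = 0.0017), and Vdac2, from 114.4 ± 1.87 to 151.8 ± 4.27 FPKM (log2 change 0.41, limma adjusted p = 0.00384), the latter not called after quantile normalization (limma adjusted p = 0.0587). Slc25a5, an ADP/ATP carrier of the inner membrane, had a larger change than Vdac2, from 156.3 ± 23.4 to 242.9 ± 14.2 FPKM (log2 change 0.64, limma adjusted p = 0.00548; named after its values were seen). Among 9 tested regulators of nuclear respiratory genes 0 rose and 2 fell (22.2%, close to the share of all tested genes; 1 and 3 at an unadjusted limma p under 0.05). Gabpa, the DNA-binding subunit of GABP, fell from 17.8 ± 2.18 to 9.70 ± 0.65 FPKM (log2 change -0.81, limma adjusted p = 0.00144). Tfb2m, a factor of mitochondrial transcription, fell from 13.1 ± 0.74 to 9.17 ± 0.86 FPKM (log2 change -0.47, limma adjusted p = 0.00813). Nrf1, which encodes NRF-1, was at 8.86 ± 0.80 and 10.9 ± 1.06 FPKM (log2 change 0.27, limma adjusted p = 0.0843). Yy1 was at 14.3 ± 1.13 and 14.8 ± 1.39 FPKM (log2 change 0.05, limma adjusted p = 0.74), and Ppargc1a was below the filter at 0.09 and 0.21 FPKM. Nrf1 and Ppargc1a were named after their values were seen.

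Promoter windows of 27 members (250 bases before to 50 after the start, RefSeq, GRCm38.p6) were searched on both strands for 4 motifs, and matches of different motifs did not overlap in these windows. No window was matched for Atp5a1, Atp5mpl, Cyc1, Uqcrb, Uqcrc2 and Uqcrq. The NRF-1 motif, GCGCA and GCGC with any 1 base between them, was present in 9 of 27 members (33.3%), against 5.19% of 27025 genes with a window and 12.29% of the 9058 of them that were tested here. It was found in 5 of 10 members that rose and 4 of 17 that were not called. The YY1 motif AAGATGGC was present in 5 of 27 members (18.5%; Atp5j, Atp5j2, Atp5pb, Atpaf2 and Uqcc2), against 3.19% of all and 5.59% of tested genes, and in 1 of the 10 members that rose. The GABP motif CCGGAAGT was in 3 of 27 members (Atp5h, Uqcr11 and Uqcrh), against 9.83% of tested genes, and the ERR motif TCAAGGTCA in 1 (Atp5g3), against 0.33%. Other spellings of the YY1 and NRF-1 motifs were looked at and may give other counts.

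The windows below show where these letters lie. Atp5o rose and carries the NRF-1 motif just after its start, Atpaf2 rose and carries the YY1 motif there, Uqcc2 carries both, and Atp5pb carries the YY1 motif across its start on the opposite strand. Each gives 100 bases before and 30 after the start on the minus strand of GRCm38.p6, with matches in capitals, at chr16:91931601-91931730, chr11:60417005-60417134, chr17:27133862-27133991 and chr3:105959234-105959363.
Atp5o: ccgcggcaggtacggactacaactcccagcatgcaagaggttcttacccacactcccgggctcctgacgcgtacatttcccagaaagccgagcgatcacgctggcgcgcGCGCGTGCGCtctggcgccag
Atpaf2: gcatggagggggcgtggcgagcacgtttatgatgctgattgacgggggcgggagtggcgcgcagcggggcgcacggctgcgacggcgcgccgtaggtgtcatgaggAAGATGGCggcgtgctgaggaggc
Uqcc2: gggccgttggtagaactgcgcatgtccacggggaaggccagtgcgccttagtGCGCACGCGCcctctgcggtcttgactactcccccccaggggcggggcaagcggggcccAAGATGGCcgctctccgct
Atp5pb: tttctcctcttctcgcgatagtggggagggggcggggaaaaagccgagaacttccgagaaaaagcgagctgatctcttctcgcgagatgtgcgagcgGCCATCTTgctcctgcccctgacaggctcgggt
Of these 4 genes, Atp5o and Atpaf2 passed the test and Uqcc2 and Atp5pb did not.

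The 11 pseudogene records named after members had means of at most 3.74 FPKM, Atp5pb-ps being highest at 5.36, 4.20 and 4.22 FPKM in WT and 3.25, 1.96 and 3.46 FPKM in the FHL3-KO-labelled libraries. The sources used here do not give how reads shared between a gene and its copies were counted.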

How the data were processed

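Total RNA of the 6 libraries was isolated with Trizol, freed of genomic DNA and made into libraries of amplified RNA, per the labels' protocols. Per the submitters' processing notes, the tools were DESeq2 1.28.1, featureCounts 2.0.1, HISAT2 2.2.1 and Trim Galore 0.6.6 and the build was mm10; the notes as given here state neither roles nor order. The authors deposited a table of 55420 rows whose values are decimal numbers for every gene in every library, taken as FPKM, since the header gives no unit and the columns sum to different totals. The sources used here give no annotation, strand setting or treatment of shared reads.

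Rows with a repeated gene ID (7 rows, 3 IDs) were dropped, and 1492 rows had no gene name. GENCODE M21 (GRCm38, the assembly mm10 names) held 94.1% of the IDs and gave coordinates, exon length, the longest transcript's GC content and the length of the principal (APPRIS) transcript. Genes whose mean reached 1 FPKM in either group (12528) were fitted as log2(FPKM + 1) with limma 3.58.1 in R 4.3.3 (mean-variance trend, two-sided, no covariates) and Benjamini-Hochberg adjustment over all of them at 0.05. A fold change on this scale understates the change of low genes. Planned count tests were not run, because the values are not counts. The members, lists, motifs and the limit of 600 bases were chosen with earlier results of these data known. Values per library are given for the 10 called members with the largest change whose groups were apart, for a fixed set of members and for others described in the text. Alternatives were a pseudocount of 0.1, no filter, a filter at 5 FPKM, 4 scalings, removal of spline trends (5 degrees of freedom) with exon length, alone or joined by GC content, the replicate number as a block, each library left out and a threshold of 0.01; removal of the trend with principal transcript length and 2 against 2 libraries were added after seeing the data. The steps were tested on simulated data.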

Additional observations from a re-analysis of the deposited data

How the results depend on the processing

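Over 18 alternative fits the 13 members that rose kept a positive log2 change, and 7 of them (Atp5c1, Atp5g2, Atp5o, Cyc1, Uqcc1, Uqcrfs1 and Uqcrh) passed an adjusted p of 0.05 in every fit. Rises numbered 7 after quantile normalization, a share close to that of all tested genes in that setting. They numbered 8 to 13 with each library left out in turn. At a threshold of 0.01 they numbered 6, and the share of all tested genes at that threshold is not given here. Falls numbered 1 (Atp5k) after the trends with length and GC content, or the trend with principal transcript length, were removed, and 0 with each library left out. The median of the members ran from -0.02 to 0.38 with a library left out, and it was below 0 without the FHL3-KO replicate 3. Of 126 tested genes in the pathway lists 58 were called (46.0%, against 40.8% of all tested genes), 35 to 66 with a library left out (35 without WT replicate 2, 38 without the FHL3-KO replicate 1), 39 without a filter and 29 at a threshold of 0.01. Fhl3 was called in every fit, and leaving out a library moved the c-subunit share differences from -4.31 to -1.35 points for Atp5g1, 0.37 to 4.52 for Atp5g2 and -0.20 to 0.98 for Atp5g3.

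The labels number the replicates alike in both groups. Deviations of same-numbered libraries correlated at r = -0.13, -0.06 and 0.32 over tested genes for replicates 1, 2 and 3. The 2 replicates 3 correlated best with each other, while the highest value, 0.37, was between WT replicate 1 and the FHL3-KO replicate 2. Whether equal numbers stand for pairs cannot be told from these values. With a replicate block 12 members rose, Uqcrc2 leaving, and 4759 genes were called in place of 5112. No read depth is known, so no counting interval is given.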

Other observations

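Vacuolar proton ATPase genes, a rotary relative of ATP synthase that acidifies lysosomes, held calls in both directions. Of 19 tested genes 5 rose and 1 fell (26.3% and 5.3%, against 19.7% and 21.2% of all tested genes; median log2 change 0.08). Atp6v1c2, a C subunit isoform, rose from 0.79 ± 0.28 to 8.13 ± 0.98 FPKM (SD, n = 3 each; log2 change 2.36, SE 0.15, limma adjusted p = 8.8e-05), a larger change than in any member. Atp6v1a, the catalytic A subunit and the counterpart of Atp5b, fell from 31.99 ± 2.59 to 19.2 ± 2.75 FPKM (log2 change -0.71, limma adjusted p = 0.00314).

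Among 10 genes that act with cytochrome c in cell death 2 rose and 4 fell (20.0% and 40.0%, against 19.7% and 21.2% of all tested genes; median -0.13). Bcl2l1, an inhibitor of cytochrome c release, rose from 21.6 ± 1.83 to 32.6 ± 1.42 FPKM (log2 change 0.57, limma adjusted p = 0.00245). Apaf1, which cytochrome c activates to start the caspases, fell from 5.69 ± 0.74 to 2.72 ± 0.43 FPKM (log2 change -0.85, limma adjusted p = 0.00286). The other 4 calls, named after their values were seen, included Diablo, a protein released with cytochrome c that blocks caspase inhibitors, which rose from 20.7 ± 2.29 to 38.3 ± 8.79 FPKM (log2 change 0.84, limma adjusted p = 0.00826). Bcl2, another inhibitor of cytochrome c release, fell from 1.95 ± 0.18 to 1.07 ± 0.12 FPKM (log2 change -0.51, limma adjusted p = 0.0123). The Bcl2 call ended after removal of the trend with exon length (limma adjusted p = 0.0661), with length and GC content (0.0621) or with principal transcript length (0.0909). Xiap, a caspase inhibitor, fell from 8.43 ± 1.51 to 4.80 ± 1.73 FPKM (log2 change -0.73, limma adjusted p = 0.0303). Casp9, the caspase that Apaf1 recruits, fell from 6.35 ± 0.58 to 4.77 ± 0.47 FPKM (log2 change -0.35, limma adjusted p = 0.0394). The Xiap call ended without the FHL3-KO replicate 1 (0.101), without the FHL3-KO replicate 3 (0.0895), without WT replicate 1 (0.0941) and without WT replicate 2 (0.0883) (limma adjusted p in brackets). It also ended with the length and GC trend removed (log2 change -0.20, limma adjusted p = 0.182) and with no filter (0.108). The Casp9 call ended without the FHL3-KO replicate 1 (0.124), without the FHL3-KO replicate 2 (0.0722), without WT replicate 2 (0.145) and without WT replicate 3 (0.102). Over the alternatives the limma adjusted p of Casp9 ran from 0.00825 to 0.19. Genes that promote and genes that oppose cell death were thus found among both the rises and the falls. Cycs itself, at 39.1 and 38.2 FPKM, was not called.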
